A study of Rattus norvegicus with 8 samples.

Results

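Col1a1 (ENSRNOG00000003897), Col1a2 (ENSRNOG00000011292) and Col3a1 (ENSRNOG00000003357) encode the chains of the main fibrillar collagens of the heart. They were taken by these Ensembl IDs, as 3 of the 21867 genes in the deposited table of estimated counts, and the symbols were given with the IDs, since the tables list IDs alone. RNA was sequenced from 8 libraries of rat cells, 2 in each of 4 groups. Cardiac fibroblasts (CF) came from the hearts of newborn Wistar Kyoto rats and served as the healthy control. Myofibroblasts (MF) were the same kind of cell after continuous passaging in low-serum medium, and served as the untreated baseline. The last groups were MF exposed for 72 h to direct current at 1 µA/cm2 or 2 µA/cm2, delivered by electrodes placed in the medium. The protocol text, which is the same for all 8 libraries, describes standard medium with 10% FBS for plating CF and for the cells under current. It does not say separately in which medium the untreated MF were kept before RNA isolation, and a part of the medium in the differences from MF was not tested. Nor do the study's methods give electrodes, plating or time in culture separately for untreated MF, and a part of these was not tested either. All groups were cultures of primary cells. The labels call the replicates biological without saying whether they came from separate isolations, so the p-values measure the spread between these libraries. The libraries held 26473085 to 37903701 estimated counts each.

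Type I collagen is a triple helix made of alpha1 chains from Col1a1 and an alpha2 chain from Col1a2, whereas type III collagen is built from the alpha1 chain of Col3a1 alone. Fibroblasts secrete both as procollagens, which are trimmed outside the cell and assembled into the fibrils that give the heart wall its tensile strength. Type I forms thick, stiff fibers and type III finer, more pliable ones, and excess of both in scar tissue is a mark of cardiac fibrosis. Col1a1 was also among the genes by which the study's methods judged differentiation to MF. The study reported brighter Col1a1 protein staining in MF than in CF. By qPCR it found Col1a1 elevated after low-serum passaging, relative to the other differentiation conditions it tried. After microcurrent it reported slightly reduced Col1a1 staining, and lower Col1a1 and Col1a2 by qPCR, in cells with or without polarity reversal. The sequenced groups had current without reversal. Their RNA was lower in MF than in CF and higher under current than in MF, as given below. Staining measures protein and not RNA, and the reason for the difference from the study's reports was not tested.

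All 3 genes were highest in CF, lowest in MF and in between after microcurrent. The level was lower in MF than in CF by a factor of 2.04 for Col1a1, 2.07 for Col1a2 and 2.81 for Col3a1. Averaged over both current densities, the treated cells were above MF by a factor of 1.66, 1.69 and 1.53, in the same order. The order MF, treated, CF held in the single libraries of each gene with no overlap, a pattern found in 423 of the 13849 genes tested (3.05%).

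Levels are given as CPM after TMM scaling, which puts each count over the scaled library total and corrects for depth and library composition but not for gene length. Col1a1 stood at 33459.6 and 29300.4 CPM in CF and at 16837 and 13997 CPM in MF. Under current it stood at 26289 and 25859 CPM at 1 µA/cm2 and at 26198 and 24188 CPM at 2 µA/cm2. The 4 treated libraries lay close together, and the lowest of them was still well above the higher MF library. The group means were 31380.0 ± 2941 in CF, 15417 ± 2008 in MF, 26074 ± 304 at 1 µA/cm2 and 25193 ± 1421 at 2 µA/cm2 (CPM, SD, n = 2 each). Col1a1 had the highest estimated count of all genes in each of the 8 libraries, MF included.

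**Figure D1:**
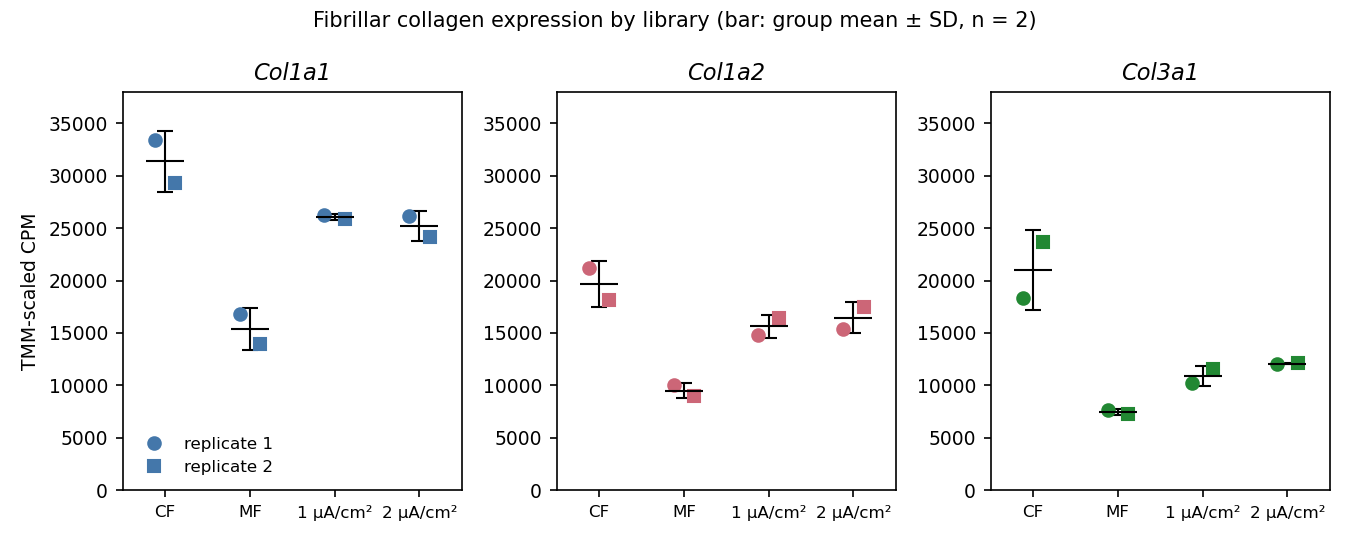
TMM-scaled CPM of Col1a1, Col1a2 and Col3a1 (y axis) in CF, MF and MF under 1 or 2 µA/cm2 (x axis), with circles for replicate 1, squares for replicate 2 and bars for the group mean ± SD (n = 2). For each gene the MF libraries are lowest and the CF libraries highest, and the libraries at 1 and 2 µA/cm2 lie between them.

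Col1a2 stood at 21198 and 18144 CPM in CF and at 10019 and 9002 CPM in MF. It stood at 14841 and 16414 CPM at 1 µA/cm2 and at 15405 and 17512 CPM at 2 µA/cm2. Here the highest treated library came close to the lower CF library. The group means were 19671 ± 2160 in CF, 9511 ± 719 in MF, 15628 ± 1112 at 1 µA/cm2 and 16459 ± 1490 at 2 µA/cm2 (CPM, SD, n = 2 each). In CF the first replicate was the higher one for both type I chains.

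Among these collagen genes only Col1a2 was matched to a RefSeq promoter window. The 250 bases before its annotated start are shown for that reason. They lie at chr4:33518307-33518556 on the plus strand of GRCr8, which is not the rn6 build used for the counts. Capitals mark a CCAAT box, which reads ATTGG here because it lies on the minus strand, and the TATA motif TATAAA on the plus strand.
Col1a2 promoter: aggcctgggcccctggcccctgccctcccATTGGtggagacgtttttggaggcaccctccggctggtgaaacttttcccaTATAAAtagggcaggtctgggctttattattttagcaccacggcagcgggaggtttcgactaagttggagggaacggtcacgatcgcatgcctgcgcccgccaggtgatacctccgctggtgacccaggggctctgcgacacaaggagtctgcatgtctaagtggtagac
The CCAAT box begins 221 bases and the TATA motif 170 bases before the annotated start. Whether transcription begins at that start was not tested, so these may not be distances from a transcription start, and part of the window may be transcribed. Counting both strands, CCAAT is in 34.0% and TATAAA in 12.9% of 33469 promoter windows of this length, and both are in 4.58%. The GC box GGGCGG, held by 30.5% of the windows, was searched on both strands and is not in this one. The matches are letters in a window, and no binding was measured.

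Col3a1 stood at 18299 and 23696 CPM in CF and at 7694 and 7268 CPM in MF. It stood at 10249 and 11554 CPM at 1 µA/cm2 and at 12036 and 12099 CPM at 2 µA/cm2. The CF libraries differed more for this gene than for the type I chains and in the other order, with the second replicate higher. The group means were 20997 ± 3816 in CF, 7481 ± 301 in MF, 10902 ± 922 at 1 µA/cm2 and 12068 ± 44.2 at 2 µA/cm2 (CPM, SD, n = 2 each). Among all genes ordered by estimated count, Col3a1 was at rank 3 and 2 in the CF libraries, at rank 6 in both MF libraries and at rank 3 or 4 under current.

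Together the 3 genes took 7.26% and 6.82% of all estimated counts in CF and 3.41% and 3.04% in MF. They took 5.28% and 5.43% at 1 µA/cm2, and 5.51% and 5.34% at 2 µA/cm2. The 95% Wilson intervals of these shares reach at most 0.00875 percentage points to either side and cover counting error only. The spread between replicates was therefore far larger than what counting alone gives. The mean share was 5.39% ± 0.0992 (SD, n = 4) in the treated cells and 3.23% ± 0.263 (SD, n = 2) in MF, a difference of 2.16 percentage points with every treated library above both MF libraries (two-sided exact permutation test, p = 0.0667, the smallest that 15 arrangements allow). In bulk RNA, fewer collagen-producing cells and less collagen RNA per cell cannot be told apart.

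**Figure D2:**
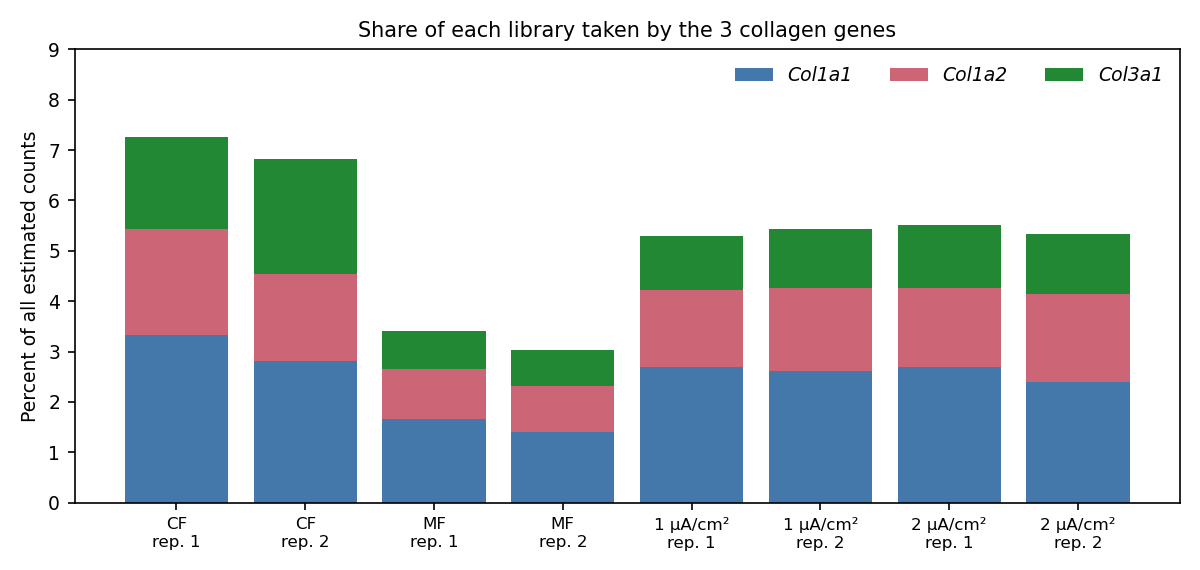
Percent of all estimated counts (y axis) taken by Col1a1, Col1a2 and Col3a1, stacked, in each of the 8 libraries (x axis). The bars reach 6.82% and 7.26% in CF, 3.04% and 3.41% in MF and 5.28% to 5.51% under current.

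The change that accompanied differentiation was tested first, between MF and CF. The test was the quasi-likelihood F test of edgeR, run on the table as a whole with all 8 libraries. A gene counts as called where its p, adjusted by Benjamini and Hochberg's method, is under 0.05 and its log2 fold change is 1 or more in size. The study's methods set the same thresholds. All 3 genes were called lower in MF, where 4.02% of all genes tested were called lower, or 8.71% by the adjusted p alone. The log2 fold change was -1.03 ± 0.172 (SE) for Col1a1 (adjusted p = 0.0118). It was -1.05 ± 0.170 for Col1a2 (adjusted p = 0.0104) and -1.49 ± 0.180 for Col3a1 (adjusted p = 0.00426). Their median was -1.05, against -0.03 over all genes. The MF libraries lay below both CF libraries for each of the 3, as they did for 34.4% of all genes tested. Col1a1 and Col1a2 sat just past the fold threshold, and without CF replicate 1 they fell short of it, at -0.91 and -0.92. With a single MF library left no gene of the 3 was called, at adjusted p from 0.0528 to 0.103 without MF replicate 1 or 2.

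The cells under current were next compared with untreated MF, a comparison that cannot separate the current from the presence of electrodes or from any difference in handling. At 1 µA/cm2 Col1a1 was higher by 0.76 ± 0.171 on the log2 scale (SE, adjusted p = 0.0472), a factor of 1.69. Col1a2 was at 0.72 ± 0.169 (adjusted p = 0.0522) and Col3a1 at 0.54 ± 0.177 (adjusted p = 0.109), and neither passed the test. By the adjusted p alone, 1 of the 3 genes was thus higher at 1 µA/cm2, where 3.13% of all genes were, and 0 of the 3 also reached the fold threshold, where 1.65% did. The pass of Col1a1 was narrow. Its adjusted p was below 0.05 in 7 of 10 other fits. It was 0.0580 with no filter, 0.0521 with length offsets and 0.0616 with a replicate block. With 1 library left out, the log2 difference of Col1a1 from MF was 0.63 to 0.90. That range concerns the size of the difference and does not show that the pass held.

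At 2 µA/cm2 the gene that passed was Col1a2, at 0.79 ± 0.169 (adjusted p = 0.0392), a factor of 1.73. Col1a1 was at 0.71 ± 0.171 (adjusted p = 0.0520) and Col3a1 at 0.69 ± 0.177 (adjusted p = 0.0595). Here too 1 of the 3 genes was higher by the adjusted p alone, against 3.57% of all genes, and 0 of the 3 were called with the fold threshold, against 1.96%. The adjusted p of Col1a2 was 0.0734 to 0.222 with any MF or treated library left out. DESeq2 gave each of the 3 genes an adjusted p below 0.05 at both current densities, from 2.17e-05 to 0.0130. The number of genes that passed thus depended on the tool, and within edgeR on the settings. Fitted on only the groups compared, edgeR gave Col1a1, Col1a2 and Col3a1 an adjusted p of 0.0140, 0.0124 and 0.0256 at 1 µA/cm2. At 2 µA/cm2 that fit gave 0.0549, 0.0366 and 0.0343. With a replicate block, edgeR gave 0.0616 to 0.142 at 1 µA/cm2 and 0.0667 to 0.0849 at 2 µA/cm2.

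With both current densities averaged against MF, all 3 genes had an adjusted p below 0.05, as had 7.00% of all genes in the upward direction. The log2 difference was 0.73 ± 0.153 for Col1a1 (SE, adjusted p = 0.0254). It was 0.75 ± 0.151 for Col1a2 (adjusted p = 0.0228) and 0.62 ± 0.157 for Col3a1 (adjusted p = 0.0434). None of the 3 reached the fold threshold, which 2.87% of all genes passed. The median of the 3 was 0.73, against 0.00 over all genes. For each of them the 4 treated libraries lay above both MF libraries, as they did for 26.4% of all genes tested. The adjusted p rested on single libraries. Without 1 of the MF or 1 µA/cm2 libraries it ranged from 0.0501 to 0.251 over the 3 genes, and without a 2 µA/cm2 library it was 0.0753 and 0.0673 for Col3a1 and below 0.05 for the others, while the log2 differences stayed between 0.57 and 0.87.

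**Figure D3:**
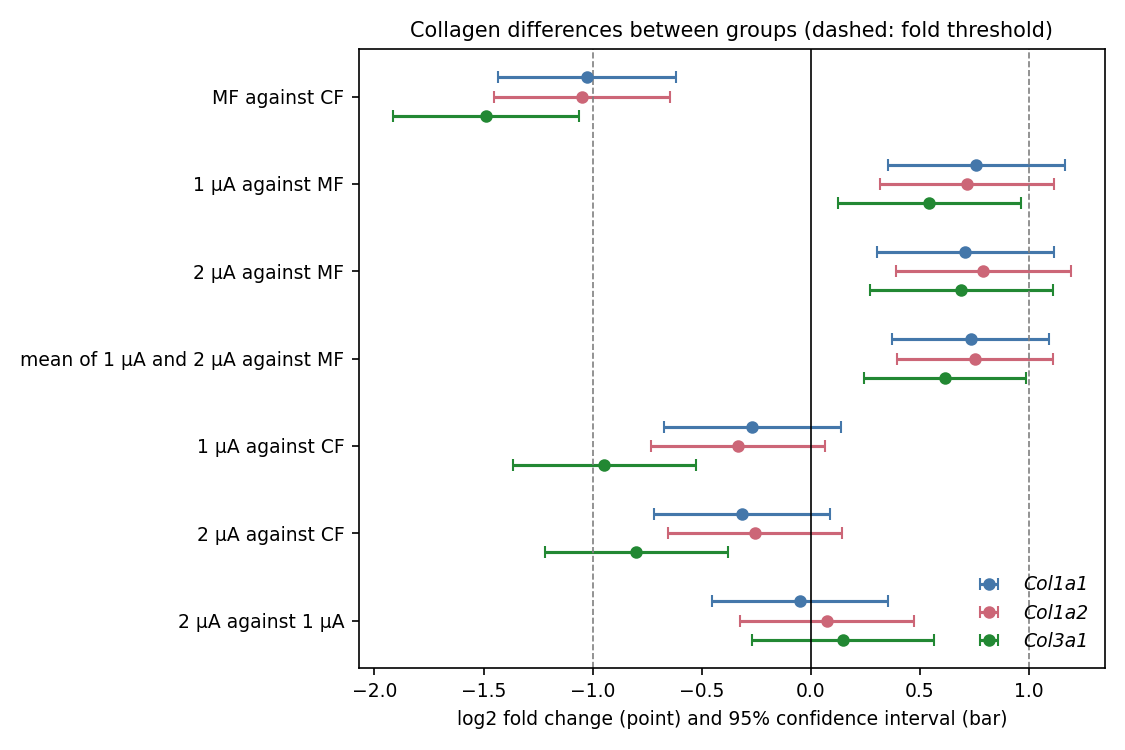
Log2 fold change (x axis, points) with its 95% confidence interval (bars) for Col1a1, Col1a2 and Col3a1 in 7 comparisons of groups (y axis), from edgeR's quasi-likelihood fit. Dashed lines mark the fold threshold at -1 and 1. The 3 points lie at or beyond -1 for MF against CF, between 0.54 and 0.79 for the treated cells against MF, and near 0 between the current densities.

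The treated cells were then set against CF, a comparison that uses the same treated libraries as the one against MF. Col3a1 was lower than in CF at 1 µA/cm2, by -0.95 ± 0.178 on the log2 scale (SE, adjusted p = 0.0229), and at 2 µA/cm2, by -0.80 ± 0.178 (adjusted p = 0.0441). By the adjusted p alone, Col3a1 was 1 of 3 genes lower at each current density, where 4.07% and 2.97% of all genes were lower. With the fold threshold 0 of the 3 were called, against 2.69% and 2.13% of all genes. Fitted on only the groups compared, Col3a1 had an adjusted p of 0.0920 at 1 µA/cm2 and 0.226 at 2 µA/cm2. The type I chains did not pass. Col1a1 was at -0.27 (95% interval -0.67 to 0.14, adjusted p = 0.367) at 1 µA/cm2 and at -0.32 (-0.72 to 0.09, adjusted p = 0.311) at 2 µA/cm2. Col1a2 was at -0.33 (-0.73 to 0.07, adjusted p = 0.259) and -0.26 (-0.66 to 0.14, adjusted p = 0.401). These intervals hold 0 but reach down to -0.73, so they do not show that the type I genes were at the CF level. All 4 treated libraries were below both CF libraries for each of the 3 genes, as for 20.5% of all genes tested. Without CF replicate 1, Col3a1 at 1 µA/cm2 was at -1.11 and called. Its adjusted p was 0.0942 and 0.154 without a 1 µA/cm2 library, and 0.0689 and 0.0698 without an MF library. At 2 µA/cm2 its adjusted p was 0.0277 without CF replicate 1, and 0.0691 to 0.152 with any other library left out.

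Between the current densities the log2 difference of 2 µA/cm2 from 1 µA/cm2 was -0.05 for Col1a1 (95% interval -0.45 to 0.35), 0.07 for Col1a2 (-0.32 to 0.47) and 0.15 for Col3a1 (-0.27 to 0.56). The adjusted p was 1 for each in edgeR's quasi-likelihood test, and 0.00722% of all genes passed. Each interval holds 0, and differences inside these intervals were not detectable with 2 libraries a group. Ordered by mean level, Col1a1 ran CF, 1 µA/cm2, 2 µA/cm2, MF, whereas Col1a2 and Col3a1 ran CF, 2 µA/cm2, 1 µA/cm2, MF. The current densities did not differ beyond their spread. The step from MF to the nearer treated group did not pass in edgeR's fit over all 8 libraries for any of the 3 genes, whereas DESeq2 passed it for each, at an adjusted p of 0.000137 for Col1a1, 0.000186 for Col1a2 and 0.0130 for Col3a1. The step from the nearer treated group to CF passed in the edgeR fit for Col3a1, with the losses given above, and did not for Col1a1 and Col1a2.

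The balance between the chains was read from ratios of estimated counts within a library, which do not depend on scaling. They are not ratios of molecules, since counts were not divided by transcript length. The ratio of Col1a2 to Col1a1 was 0.634 and 0.619 in CF, 0.595 and 0.643 in MF, 0.565 and 0.635 at 1 µA/cm2, and 0.588 and 0.724 at 2 µA/cm2. The CF values lay inside the range of the MF values, and the treated values spread to both sides of it. The log2 ratio differed by 0.01 between the 4 treated and 2 MF libraries (two-sided exact permutation test, p = 1).

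Col3a1 to Col1a1 was 0.547 and 0.809 in CF and 0.457 and 0.519 in MF, against 0.390 and 0.447 at 1 µA/cm2 and 0.459 and 0.500 at 2 µA/cm2. Both CF libraries were above all others, with a wide gap between them. Treated and MF libraries overlapped, with a log2 difference of -0.12 (two-sided exact permutation test, p = 0.4). Col3a1 to Col1a2 was 0.863 and 1.31 in CF, 0.768 and 0.807 in MF, 0.691 and 0.704 at 1 µA/cm2, and 0.781 and 0.691 at 2 µA/cm2, again highest in CF. Its log2 difference between treated cells and MF was -0.14 (two-sided exact permutation test, p = 0.2). Adjusted over the 3 ratios, the p-values were 1, 0.6 and 0.6, and 15 arrangements cannot give a p below 0.0667.

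**Figure D4:**
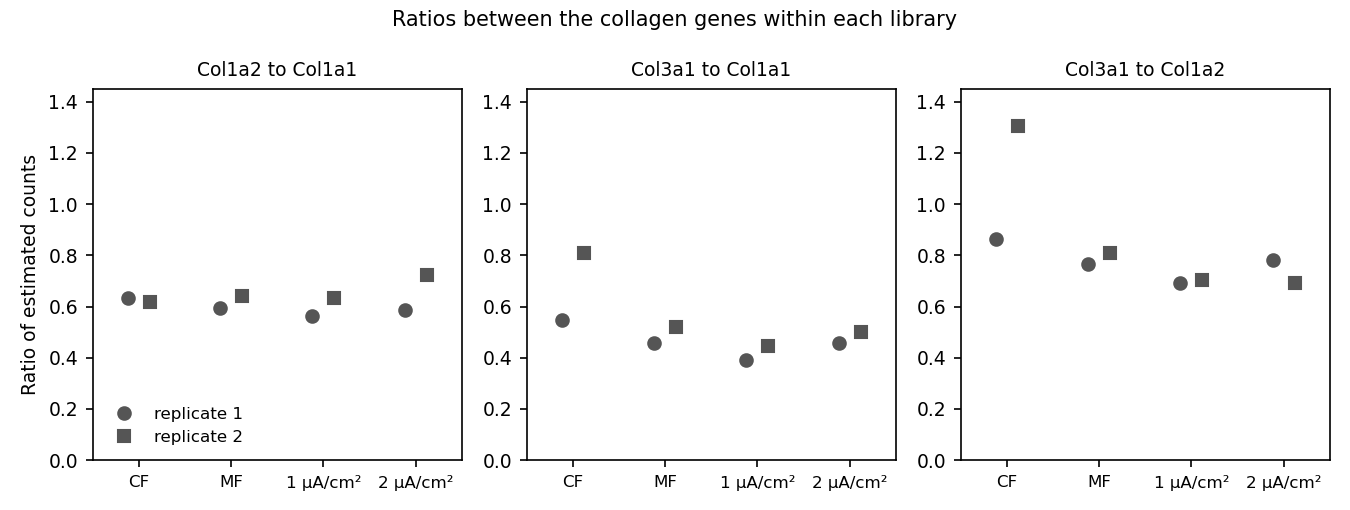
Ratio of estimated counts (y axis) of Col1a2 to Col1a1, Col3a1 to Col1a1 and Col3a1 to Col1a2 within each library of CF, MF and MF under 1 or 2 µA/cm2 (x axis), with circles for replicate 1 and squares for replicate 2. Col1a2 to Col1a1 stays between 0.565 and 0.724, while the ratios of Col3a1 are highest in CF.

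The study's table of whole-number counts, which holds 13341 genes, placed the groups in the same order for Col1a1. The means there were 28716 ± 2651 CPM in CF, 13763 ± 1496 in MF, 23483 ± 545 at 1 µA/cm2 and 22627 ± 1512 at 2 µA/cm2 for Col1a1 (SD, n = 2 each). Its log2 difference of MF from CF was -1.06 for Col1a1, -1.08 for Col1a2 and -1.51 for Col3a1. Treated cells were above MF by 0.74, 0.77 and 0.61 there. The log2 ratio of Col3a1 to Col1a2 differed by -0.16 between treated cells and MF in these counts, with every treated ratio below both MF ratios. Its p was 0.0667 (two-sided exact permutation test, not adjusted), against 0.2 in the estimated counts. The same test gave 0.333 for Col3a1 to Col1a1 and 0.867 for Col1a2 to Col1a1.

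The gene whose pattern was most like the 3 collagens was ENSRNOG00000008943, with a Pearson correlation of 0.995 over the 8 libraries between its vst values (a log2-like scale) and the mean of the standardised values of the 3, among 13846 other genes. It stood at 15.4 and 16.9 CPM in CF, 3.44 and 2.60 CPM in MF, 7.33 and 9.48 CPM at 1 µA/cm2 and 9.64 and 9.94 CPM at 2 µA/cm2. ENSRNOG00000012136 came next, with a correlation of 0.983 and levels from 20.8 CPM in MF to 31.1 CPM in CF. These correlations describe 8 libraries in 4 groups, and 40 genes had one above 0.95. On log2 CPM the first gene was the same, at 0.994, but the next was ENSRNOG00000018582, at 0.989, and 55 genes were above 0.95. Among themselves the collagens correlated at 0.965 for Col1a1 with Col1a2, 0.842 for Col1a1 with Col3a1 and 0.850 for Col1a2 with Col3a1.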

How the data were processed

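Bulk RNA-seq covered 8 libraries, 2 each of CF, MF and MF under direct current at 1 or 2 µA/cm2. Expected counts for each gene were deposited by the authors, who estimated them with salmon 1.4.0 on the rn6 transcriptome and tximeta 1.14.1. They also deposited DESeq2-normalized values, held here as a signal, and vst values on a log2 scale. The table of whole-number counts was deposited by the authors with no pipeline named for it; fastp and STAR appear in the labels. The submitters' processing notes name DESeq2 1.28.1 and the study's methods DESeq2 1.36.0.

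After rounding to integers, these counts were fitted over all 8 libraries with edgeR 4.0.16 in R 4.3.3 (filterByExpr, TMM, robust glmQLFit and glmQLFTest). There were 13849 genes tested, all 3 collagens included, with 4 residual degrees of freedom. Standard errors were the log2 fold change over the square root of F. Shares and ratios were tested by exact permutation on the absolute difference of means. The replicates of a group were checked for a repeated library and were not identical within sampling noise (mean chi-square for a gene of 16.3 between MF and of 114 between CF libraries), which does not show that they came from separate cultures. DESeq2 1.42.0, other scalings and filters, the whole-number counts, length offsets taken from the signal table, fewer groups, a replicate block, other thresholds and left-out libraries were the alternatives. Figures used matplotlib 3.10.9.

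The genes named are the 3 members and, for likeness of pattern, the 2 IDs with the highest correlation. The genes and the tests were chosen with earlier results of these data known. Lists of collagen-processing enzymes, other fibrillar collagens, inducers and cell type markers were planned by symbol and not analysed here, because neither the tables nor the RefSeq genes (GRCr8) pair symbols with the Ensembl IDs. The labels' cell types were therefore not checked against markers. A promoter sequence was matched for 1 of the 3 genes.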

Additional observations from a re-analysis of the deposited data

How the results depend on the processing

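Over 10 other fits (DESeq2, RLE and upper quartile scaling, scaling without the collagens, no filter, at least 10 counts in every library, whole-number counts, length offsets, only the groups compared, replicate block) the direction of all 21 differences held. With length offsets, Col1a1 between MF and CF fell just short of the fold threshold at -0.99. At an adjusted p below 0.01, Col1a1 (-1.03) and Col1a2 (-1.05) lost the call and Col3a1 kept it. Without a fold threshold, Col1a1 at 1 µA/cm2 against MF (0.76), Col1a2 at 2 µA/cm2 against MF (0.79), all 3 for the mean of both (0.73, 0.75 and 0.62), and Col3a1 at 1 and 2 µA/cm2 against CF (-0.95 and -0.80) were called.

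Leaving out 1 library gave -1.16 to -0.90 for Col1a1, -1.16 to -0.92 for Col1a2 and -1.65 to -1.29 for Col3a1 between MF and CF, and -1.11 to -0.75 for Col3a1 between 1 µA/cm2 and CF. A group left with 1 library was assumed to vary like the others. Between the current densities the range was -0.11 to 0.01 for Col1a1 and -0.02 to 0.16 for Col1a2, with the sign turned without 2 µA/cm2 replicate 2 (0.0071 and -0.020). The log2 ratio of Col1a2 to Col1a1 between treated cells and MF ranged from -0.056 to 0.071, turning to -0.056 without 2 µA/cm2 replicate 2 and to -0.041 without MF replicate 1.

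The labels do not say whether libraries of different groups with the same replicate number belong together. Deviations of same-numbered libraries correlated at -0.172 to 0.242 between groups, which cannot decide whether they shared an isolation. With a replicate block the 3 calls between MF and CF held (-1.03, -1.05 and -1.48), and for the mean of both current densities edgeR gave an adjusted p of 0.0342, 0.0417 and 0.0625, against 1.30e-06 to 0.0625 over all 10 fits. The block also took above 0.05 the adjusted p of Col1a1 at 1 µA/cm2 (0.0616) and Col1a2 at 2 µA/cm2 (0.0667) against MF, and of Col3a1 at 2 µA/cm2 against CF (0.0672).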
